A study of Mus musculus with 60 samples.

Results

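Livers of 5 female mice fed a high-fat, high-sucrose (HF/HS) diet for 60 weeks were compared with those of 5 females fed a matched control diet for as long. These were the libraries of the deposited gene count table that the labels give as female and 60 weeks, 10 of 60 libraries in all. All animals belonged to CC042/GeniUnc, one of the inbred strains of the Collaborative Cross, and the series followed steatotic liver disease tied to metabolic dysfunction in both sexes over 20, 40 and 60 weeks of feeding. The HF/HS diet drew 42% of its kilocalories from milkfat rich in palmitic acid, with 0.2% cholesterol and more than 30% sucrose, and the control diet had matched ingredients with little fat and less sucrose. No age at the start of feeding is stated in the labels, histology was not analysed here, and the labels name no transgene or further treatment. Each library was made from total RNA of whole liver after depletion of ribosomal RNA. In whole tissue, a change in the number of cells of a type and a change in RNA per cell cannot be told apart. The labels number the animals but do not say whether numbers mark litters or cages, so livers were treated as independent. The p-values rest on the spread between livers within the 12 groups of all 60 libraries, not on these 10 livers alone.

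A liver that is given more fat and sugar than it burns or exports stores triglyceride in droplets inside hepatocytes. With time such livers can gain macrophages that take up lipid, collagen made by stellate cells and fibroblasts, and new bile duct-like cells, while enzymes of the mature hepatocyte fall. In mice, liver genes also differ between the sexes under the control of growth hormone pulses, so that loss of sex-biased expression is a further feature of a changed liver.

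The 10 libraries held 12287877 to 17911205 counts. Values below are CPM, read counts relative to the size of each library, with library sizes scaled by the trimmed mean of M values, given per animal in the order 31, 32, 42, 191 and 192 for the control diet and 111, 112, 121, 122 and 281 for the HF/HS diet. Albumin (Alb), the main plasma protein made by hepatocytes, was at 14235.8 to 17456.7 CPM in the controls and 10302.2 to 12063.6 CPM in the HF/HS livers, and Xist, which is transcribed from the inactive X chromosome, was at 3596.4 to 5608.8 CPM in all 10 libraries, so tissue and sex matched the labels. Control animal 31 stood apart from the other controls. Its rank correlation with them over all genes was 0.972 to 0.980, against 0.991 to 0.994 among the other 4 controls and 0.989 to 0.995 among the HF/HS livers, as a description of these libraries that share their gene set. Without animal 31, 4757 of the 5246 calls described next (90.7%) were still called, 0 of them with the opposite sign, 489 were lost and 1375 were gained. That fit also took another reference library for the scaling. With that reference and animal 31 kept, 5748 genes were called, so the calls lost and gained do not belong to animal 31 alone.

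Long feeding moved a large part of the measured transcriptome in both directions. Of 14180 genes tested with edgeR, 5246 (37%) passed a Benjamini-Hochberg adjusted p of 0.05, of which 2751 (19.4%) were higher and 2495 (17.6%) were lower on the HF/HS diet. Counts of list members given below are to be read beside these shares. Increases were larger than decreases: 1216 genes (8.58%) rose by at least 2-fold, and 291 (2.05%) fell by as much. The median log2 fold change of all genes was -0.014. The scaling sets every library against 1 reference library. Against the reference library that the same method takes once any 1 of the 10 livers is left out, the median was -0.055 and the calls split into 2496 higher and 3252 lower. The 10 fits without 1 liver likewise held 43.1 to 44.9% higher calls, so the sign of the smallest changes depends on the scaling. The CPM ranges of the groups did not overlap at 2959 genes (20.9%).

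**Figure D1:**
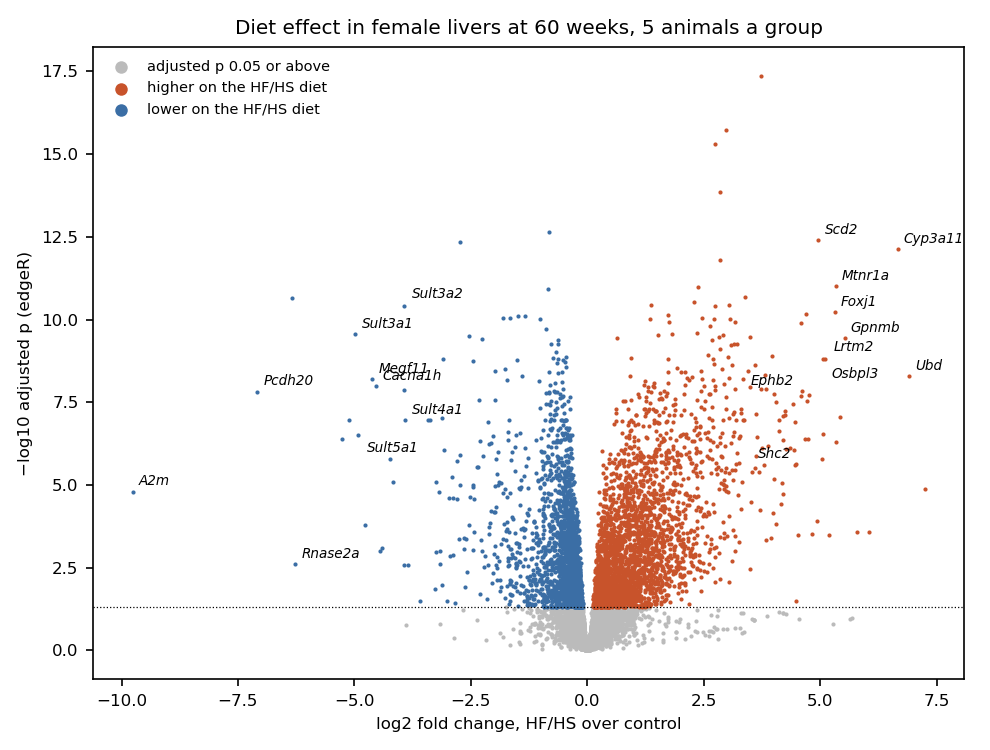
Each point is one of the 14180 genes tested, placed by its log2 fold change (HF/HS over control, x axis) and by −log10 of its edgeR adjusted p (y axis), with the dotted line at an adjusted p of 0.05. The 2751 genes in orange hold 1216 that rose by at least 2-fold and the 2495 genes in blue hold 291 that fell by as much, and the labelled genes are described in the text.

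Cyp3a11 (a cytochrome P450, chr5:145854426-145879964, minus strand in mm10) oxidises bile acids, steroids and many drugs. It was at 6.73, 5.03, 5.74, 5.29 and 5.6 CPM in the controls and at 902.1, 451.3, 326.9, 900.9 and 283.2 CPM in the HF/HS livers. All 5 HF/HS livers lay above every control, most of all animals 111 and 122, and the log2 fold change was 6.66 ± 0.57 (SE; edgeR adjusted p = 7.43e-13). Scd2 (chr19:44293674-44306864, plus strand), a stearoyl-CoA desaturase that adds a double bond to saturated fatty acids, was at 22, 12, 13.9, 25.9 and 12.9 CPM in the controls and at 640.1, 710.8, 340.3, 648.6 and 349.6 CPM in the HF/HS livers, a log2 fold change of 4.95 ± 0.41 (edgeR adjusted p = 3.98e-13). The lowest HF/HS livers were again animals 121 and 281, and neither reached down to the control range. Osbpl3 (chr6:50293330-50456201, minus strand), of the oxysterol-binding protein family, was at 2.94, 2.3, 2.01, 1.43 and 2.45 CPM in the controls and 96.4, 83.8, 38.8, 105.6 and 45.8 CPM in the HF/HS livers, with the same 3 animals (111, 112 and 122) highest and no overlap.

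Of the other genes with the largest increases, Ubd (chr17:37193892-37196095, plus strand), a ubiquitin-like modifier also known as FAT10, was at 0, 0.0606, 0.143, 0 and 0.0876 CPM in the controls, which held 4 counts between them, and at 6.03, 4.29, 2.21, 22.9 and 3.62 CPM in the HF/HS livers. Animal 122 was far above the other 4, and the log2 fold change was 6.91 ± 0.81. Gpnmb (chr6:49036546-49070929, plus strand), a glycoprotein of lipid-laden macrophages, was at 1.5, 0.424, 0.287, 1.72 and 0.701 CPM and 46.9, 31.4, 14.2, 39.5 and 80.6 CPM, a log2 fold change of 5.52 ± 0.59 with animal 281 highest and no overlap. Mtnr1a, a melatonin receptor, rose by 5.33 ± 0.49 on the log2 scale, Foxj1, a transcription factor of ciliated cells, by 5.30 ± 0.53, Lrtm2, a transmembrane protein with leucine-rich repeats, by 5.10 ± 0.58, Ephb2, a receptor of ephrins, by 4.76 ± 0.60, and Shc2, an adaptor protein, by 4.73 ± 0.69. These 5 genes were rare in the controls (means of 0.0716 to 0.329 CPM). Separate ranges and a call were part of the rule that chose the genes of largest change, so neither is a finding for them. Mtnr1a was least high in animal 281 (0.678 CPM, against 2.37 to 5.21 CPM in the other 4).

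Of the genes with the largest decreases, Sult3a1 (chr10:33857721-33879532, plus strand), a sulfotransferase, was at 104.3, 167.6, 162.0, 115.8 and 112.9 CPM in the controls and 1.74, 5.47, 12.2, 0.773 and 0.791 CPM in the HF/HS livers, a log2 fold change of -4.98 ± 0.53 (edgeR adjusted p = 2.83e-10), with animals 121 and 112 the least reduced and no overlap. Its neighbour Sult3a2 (chr10:33766424-33786704, minus strand) was at 31.7, 50.6, 49.6, 39.8 and 39.5 CPM and 1.64, 2.48, 8.05, 0.979 and 0.565 CPM, with the same 2 animals the least reduced. The Sult3a genes are near-identical and can share reads, so the split between them is uncertain. Sult5a1 changed by -4.91 ± 0.71 and Sult4a1, a sulfotransferase of the nervous system, by -3.91 ± 0.54.

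Several leading decreases rested on unequal controls. A2m, a plasma protease inhibitor, was at 1938.3, 19.6, 3.51, 1.22 and 1.23 CPM in the controls and 0.897, 0.395, 0.421, 0.361 and 0.113 CPM in the HF/HS livers. Its fitted change of -9.76 ± 1.75 was set by animal 31, and without that animal it was -3.90 (adjusted p = 0.0204). Pcdh20 (chr14:88464743-88471396, minus strand), a cell adhesion protein, was at 1, 4.24, 6.03, 23.1 and 22.1 CPM and 0, 0, 0.263, 0.0515 and 0.0565 CPM, so all controls lay above all HF/HS livers while differing among themselves. Megf11, a cell surface protein with EGF-like repeats, changed by -4.62 ± 0.56 and Cacna1h, a T-type calcium channel, by -4.54 ± 0.56, with no overlap for either. Rnase2a, a ribonuclease of eosinophil granules, was at 0.931, 4, 2.94, 6.37 and 0.876 CPM in the controls and had 3 counts over all HF/HS livers, which made it lower by a ratio of 98.2 (exact 95% counting interval 33.2 to 479.8).

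**Figure D2:**
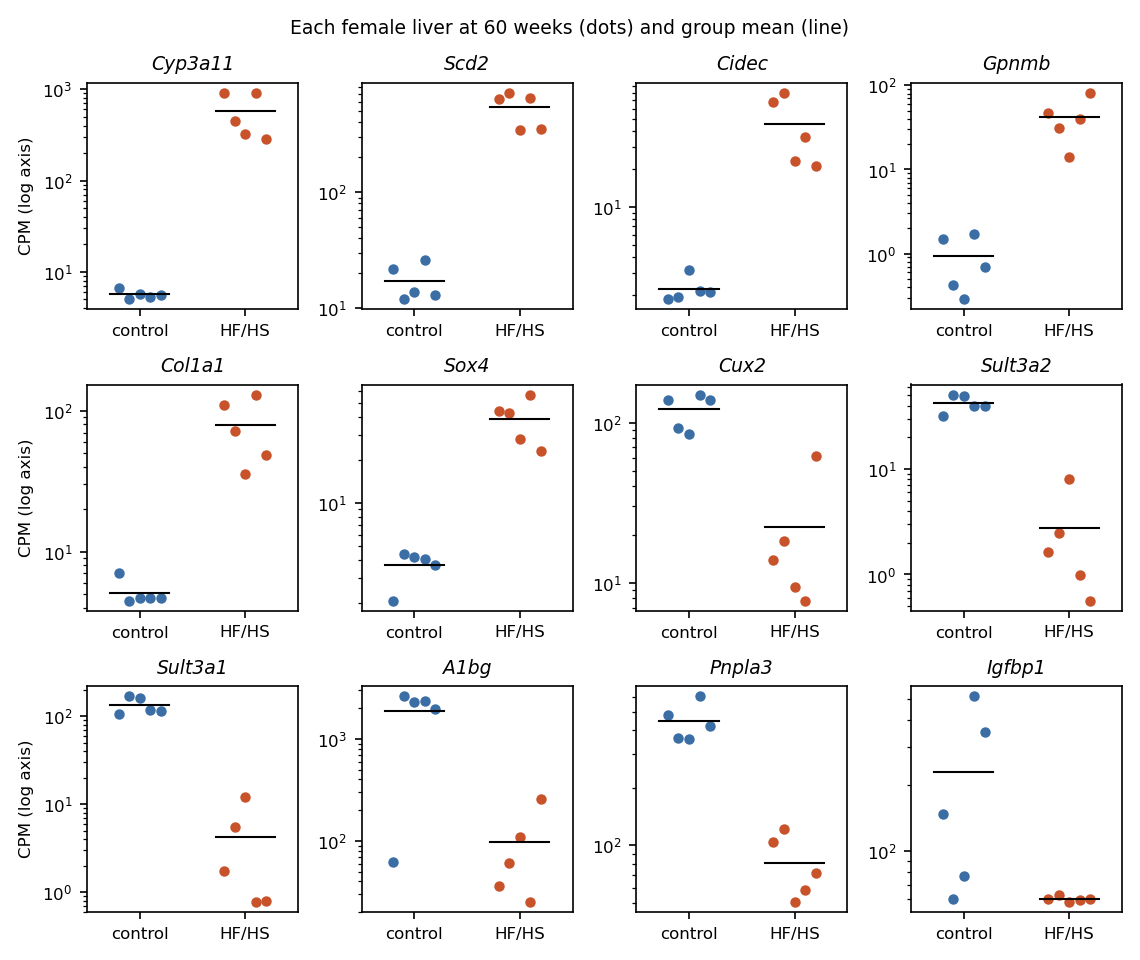
Each dot is 1 liver on a logarithmic CPM axis, controls in blue and HF/HS livers in orange, with the group mean as a line, for 12 of the genes described. The groups are apart for every gene shown except A1bg, where control animal 31 (62.1 CPM) sits among the HF/HS livers, and Igfbp1, where control animal 32 (60.2 CPM) does.

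Genes that make cholesterol moved in 1 direction. The sterol pathway is switched on by the SREBP2 factor when a cell lacks cholesterol and is shut down when cholesterol is plentiful. Of 24 genes of cholesterol synthesis and uptake tested, 0 rose and 16 fell, with a median log2 fold change of -0.68 beside -0.014 for all genes. The ranges of 15 members were fully lower in the HF/HS livers, against 9.73% of all genes. Promoters of members were examined because the genes fell together. RefSeq (GRCm38.p6) gave the 250 bases before the start for 16 members. The letters CCAAT, read on both strands, occurred in 15 of them (93.8%), against 34.5% of 27025 promoters of that length. They were also frequent in cell cycle promoters (20 of 25, 80%), a list of which 21 of 30 tested rose, in amino acid metabolism promoters (19 of 24, 79.2%) and in endoplasmic reticulum stress promoters (15 of 22, 68.2%). The sterol regulatory letters TCACNCCAC (N is any base) occurred in 1 of the 16 (Hmgcs1), against 1.04% of all promoters. The promoters of 4 members that fell and of Hmgcs1, which did not pass the test, are shown 5′ to 3′ on the gene's strand, ending at the base before the start, with CCAAT or its reverse complement ATTGG, and the sterol letters in Hmgcs1, in capitals.
Mvd (chr8:122443423-122443672, minus strand): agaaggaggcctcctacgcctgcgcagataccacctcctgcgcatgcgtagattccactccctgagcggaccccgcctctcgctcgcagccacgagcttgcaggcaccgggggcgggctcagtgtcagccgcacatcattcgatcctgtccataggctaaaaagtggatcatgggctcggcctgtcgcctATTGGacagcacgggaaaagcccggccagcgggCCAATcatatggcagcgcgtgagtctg
Mvk (chr5:114444019-114444268, plus strand): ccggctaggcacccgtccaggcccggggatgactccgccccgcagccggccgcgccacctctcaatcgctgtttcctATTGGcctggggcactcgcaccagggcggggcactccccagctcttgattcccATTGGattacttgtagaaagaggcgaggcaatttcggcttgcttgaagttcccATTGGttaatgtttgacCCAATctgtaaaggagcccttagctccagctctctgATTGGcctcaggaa
Cyp51 (chr5:4104698-4104947, minus strand): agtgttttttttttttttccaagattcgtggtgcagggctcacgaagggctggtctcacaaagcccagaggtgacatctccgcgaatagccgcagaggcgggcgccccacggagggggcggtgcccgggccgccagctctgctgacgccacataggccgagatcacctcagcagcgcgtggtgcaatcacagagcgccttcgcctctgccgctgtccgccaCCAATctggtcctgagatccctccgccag
Insig1 (chr5:28071162-28071411, plus strand): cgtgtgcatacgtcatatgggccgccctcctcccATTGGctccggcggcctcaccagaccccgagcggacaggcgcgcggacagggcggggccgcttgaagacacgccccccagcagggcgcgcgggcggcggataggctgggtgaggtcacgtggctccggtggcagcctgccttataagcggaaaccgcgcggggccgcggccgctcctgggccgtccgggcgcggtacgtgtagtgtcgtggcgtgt
Hmgcs1 (chr13:119690101-119690350, plus strand): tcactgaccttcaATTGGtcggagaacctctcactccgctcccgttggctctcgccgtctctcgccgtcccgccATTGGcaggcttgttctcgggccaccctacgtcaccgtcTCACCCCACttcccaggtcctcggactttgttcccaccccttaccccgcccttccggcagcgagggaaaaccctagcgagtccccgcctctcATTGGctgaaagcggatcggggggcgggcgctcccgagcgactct
The number of CCAAT matches did not order the genes by their change: Mvk, with 5 in the window, changed less than Cyp51 and Insig1, with 1 each.

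At the entry of the pathway, Hmgcs1, which joins acetyl units, was at 232.9, 191.1, 210.2, 276.6 and 231.0 CPM in the controls and 223.1, 268.5, 189.3, 221.1 and 124.4 CPM in the HF/HS livers, overlapping ranges that gave -0.15 ± 0.25 (edgeR adjusted p = 0.655). Mvd, which makes isopentenyl diphosphate, changed by -1.12 ± 0.35 (adjusted p = 0.00947), Mvk, the kinase 2 steps before it, by -0.45 ± 0.18 (adjusted p = 0.0387, and between 0.0576 and 0.107 without control 31, control 191 or HF/HS animal 281) and Cyp51, which demethylates lanosterol, by -0.84 ± 0.23 (adjusted p = 0.00368). Squalene epoxidase (Sqle) was at 270.6, 124.1, 166.8, 187.1 and 115.0 CPM and 90.6, 118.4, 89.3, 82.9 and 49.1 CPM, overlapped, and did not pass (-1.01 ± 0.44, adjusted p = 0.0686). It passed in the fit of the 10 libraries alone (-0.98, adjusted p = 0.0157), with the range of the animal numbers as a covariate, and without control 32 or 192 or HF/HS animal 112. Among regulators, Insig1, which holds SREBP in the endoplasmic reticulum, changed by -0.90 ± 0.22, with no overlap.

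Enzymes of fatty acid and triglyceride synthesis were lower more often than higher. Of 26 tested, 1 rose (Scd2), 9 fell and 16 did not pass, with a median of -0.47. Pnpla3, a lipase-like droplet protein known from human fatty liver, was at 478.6, 364.7, 359.4, 602.7 and 423.0 CPM in the controls and 104.4, 121.6, 50.5, 58.5 and 71.7 CPM in the HF/HS livers. Every HF/HS liver was below every control, and the change was -2.45 ± 0.59 (edgeR adjusted p = 0.000916). Lpin1, which makes diacylglycerol, was at 447.4, 300.6, 472.1, 837.3 and 925.2 CPM and 151.2, 115.7, 190.6, 89.3 and 228.0 CPM, again without overlap (-1.94 ± 0.53). Elovl6, which lengthens palmitate, was at 295.7, 699.3, 746.0, 1396.1 and 908.6 CPM and 424.6, 466.2, 198.8, 320.3 and 218.4 CPM, overlapping because control animal 31 was low (-1.31 ± 0.44, adjusted p = 0.0152, or 0.0556 without animal 191). The citrate lyase Acly changed by -1.12 ± 0.39 and the lipogenic protein Thrsp by -1.04 ± 0.30, both with separate ranges (Acly had an adjusted p of 0.0509 without HF/HS animal 281). Fasn, the fatty acid synthase, did not pass (-0.49 ± 0.37, adjusted p = 0.316), and Scd1, the main liver desaturase, was at 16232.5 ± 2154.0 CPM (SD, n = 5) in the controls and 17938.3 ± 1756.3 CPM in the HF/HS livers (0.14 ± 0.17, adjusted p = 0.54). The mean of Scd2 was 17.3 CPM in the controls and 537.9 CPM in the HF/HS livers, while the values of Scd1 overlapped between the groups.

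Lipid droplet and fatty acid uptake genes split: of 24 tested, 7 rose and 4 fell, with a median of 0.18. Cidec, which fuses droplets, was at 1.86, 1.94, 3.16, 2.15 and 2.1 CPM in the controls and 68, 79.2, 23, 35.4 and 21.2 CPM in the HF/HS livers, a log2 fold change of 4.34 ± 0.66 (edgeR adjusted p = 7.48e-07). Its relative Cidea, known from brown fat, was at 0.644, 0.121, 0, 0.0715 and 0 CPM and 5.38, 9.43, 1.37, 3.09 and 1.36 CPM (4.52 ± 1). Animals 111 and 112 were the highest for both genes, and neither gene overlapped. Lpl, the lipoprotein lipase, was at 23.9, 11.2, 12, 25 and 12.8 CPM and 151.1, 116.0, 75.8, 161.8 and 128.8 CPM (2.90 ± 0.31), and Fitm1, which promotes droplet formation, changed by 2.36 ± 0.40. Fabp5, a fatty acid binding protein, went the other way, at 177.0, 42.6, 109.6, 45.8 and 37.4 CPM in the controls and 21.1, 37.8, 18.2, 16.3 and 20.3 CPM in the HF/HS livers, a change of -1.86 ± 0.43 with overlap between control 192 and HF/HS animal 112. The other 3 that fell were the liver binding protein Fabp1 (-0.43 ± 0.13) and the acyl-CoA synthetases Slc27a5 (-0.36 ± 0.07) and Acsl1 (-0.53 ± 0.18). The fatty acid receptor Cd36 did not pass (0.35 ± 0.26, adjusted p = 0.306).

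Of 33 fatty acid oxidation and ketone body genes, 2 were higher and 6 lower, with a median of -0.10, and 11 were lower with the other scaling reference. The 6 lower were near the 17.6% of all genes that were lower. Angptl4, an inhibitor of lipoprotein lipase, was at 184.8, 216.0, 260.2, 241.5 and 339.5 CPM in the controls and 122.1, 85.2, 138.5, 83.9 and 126.8 CPM in the HF/HS livers, without overlap (-1.16 ± 0.24, edgeR adjusted p = 0.000133). Pdk4, which turns off pyruvate oxidation, changed by -0.97 ± 0.31, and Ucp2, a mitochondrial carrier, by 0.84 ± 0.22. The other gene that rose was the peroxisomal thiolase Acaa1a (0.31 ± 0.10). The nuclear receptor Ppara, which drives fatty acid oxidation, changed by -0.36 ± 0.12, and the ranges overlapped because animal 31 was the lowest control. Cyp4a32, a fatty acid hydroxylase of a family that shares reads, changed by -0.74 ± 0.26. Fgf21, a fasting hormone of liver (0.32 ± 0.30), and Cyp4a14 (-0.16 ± 0.48) did not pass. Without control animal 31, 15 of the 33 were lower.

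Bile acids are made from cholesterol in hepatocytes, and the receptor FXR restrains their synthesis through Nr0b2. Of 26 genes of bile acid synthesis and transport tested, 2 rose and 15 fell, with a median of -0.35. Cyp7a1, the rate-limiting enzyme, was at 19.6, 14.5, 13.5, 88.2 and 57.9 CPM in the controls and 152.7, 172.9, 89.3, 221.3 and 133.5 CPM in the HF/HS livers, a change of 2 ± 0.58 (edgeR adjusted p = 0.00562). The lowest HF/HS liver (121) was just above the highest control (191). The other gene that rose was the exporter Abcc3 (1.03 ± 0.29). Cyp8b1, which makes cholic acid, was at 91.4, 114.7, 142.8, 235.9 and 218.7 CPM and 60.4, 48.2, 52.7, 42.7 and 45 CPM, and all HF/HS livers were lower (-1.69 ± 0.37). Nr0b2, the repressor SHP, was at 34.2, 64.1, 55.7, 63.7 and 77.9 CPM and 13.6, 12.1, 14.8, 13.1 and 33.6 CPM (-1.76 ± 0.31), with HF/HS animal 281 close to the lowest control. Of the transporters that take up bile acids and organic anions, Slco1a1 was at 508.7, 922.6, 861.5, 632.7 and 892.6 CPM and 169.8, 250.4, 345.8, 183.7 and 138.1 CPM (-1.81 ± 0.18), and Slc10a1, the main sodium-dependent carrier, changed by -0.81 ± 0.10 (adjusted p = 9.4e-09), both without overlap.

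Enzymes of glucose and amino acid metabolism were lower as groups. Of 29 glucose genes tested, 4 rose and 12 fell (median -0.25), and of 35 amino acid, urea and one-carbon genes, 2 rose and 23 fell (median -0.41). Pklr, the liver pyruvate kinase, was at 367.9, 628.7, 556.1, 673.9 and 549.2 CPM in the controls and 281.4, 302.6, 269.6, 276.5 and 233.7 CPM in the HF/HS livers, without overlap (-1.03 ± 0.18, edgeR adjusted p = 1.27e-05). The pyruvate kinase of other cells, Pkm, moved up by 0.95 ± 0.26, as did hexokinase 2 (Hk2, 1.26 ± 0.38), and in both animal 31 was the control that overlapped. The other two that rose were the hexokinases Hk1 (0.59 ± 0.15) and Hk3 (0.68 ± 0.27). Pck1, which starts glucose output, was at 1569.5, 1718.7, 2011.6, 2434.7 and 3189.1 CPM and 985.0, 835.0, 1453.5, 837.8 and 1349.6 CPM, lower in every HF/HS liver (-1 ± 0.24). G6pc, its last step, overlapped and did not pass (-0.63 ± 0.32, adjusted p = 0.113), but passed without control animal 31 (-0.90, adjusted p = 0.0152), without HF/HS animal 121 and in limma voom. Tat, which breaks down tyrosine, was at 2130.9, 1366.7, 1667.2, 3097.9 and 3717.1 CPM and 596.2, 669.7, 1229.1, 666.2 and 1169.9 CPM, without overlap (-1.47 ± 0.34). The transaminase Got1 changed by -1.06 ± 0.18, liver glutaminase Gls2 by -0.92 ± 0.13 and Cps1, the first enzyme of the urea cycle, by -0.53 ± 0.13, each with separate ranges. Phgdh, the entry to serine synthesis, changed by 1.70 ± 0.50 from low values (0.198 ± 0.0389 CPM in the controls), and did not pass without HF/HS animal 122. The other that rose was the mitochondrial folate enzyme Mthfd1l (0.87 ± 0.34).

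Genes that differ between male and female liver moved down on both sides. Of 30 female-biased genes tested, 0 rose and 16 fell (median -0.83), and of 32 male-biased genes, 2 rose and 11 fell (median -0.54). Cux2, a female-biased repressor of male genes, was at 139.4, 92.2, 85.4, 149.3 and 139.5 CPM in the controls and 13.9, 18.3, 9.42, 7.73 and 61.5 CPM in the HF/HS livers. HF/HS animal 281 was well above the other 4 but below the lowest control, and the change was -2.45 ± 0.43 (edgeR adjusted p = 1.17e-05). A1bg, a female-biased plasma protein, was at 62.1, 2617.3, 2295.8, 2365.5 and 1962.7 CPM and 36.4, 60.9, 110.0, 25.1 and 258.5 CPM. Control animal 31 was as low as the HF/HS livers, so the ranges overlapped, and the change was -4.25 ± 0.67 (adjusted p = 1.59e-06). The female-biased P450 enzymes Cyp2c69 and Cyp3a16 changed by -1.80 ± 0.38 and -2.08 ± 0.31, and the steroid sulfotransferase Sult2a1 by -0.74 ± 0.16. Cyp3a16 and Cyp3a11 are near-identical members of 1 family and moved in opposite directions, with the reads they share uncertain.

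Among male-biased genes, the major urinary proteins, which carry pheromones, were rare in these females. Mup12, Mup7 and Mup1 changed by -2.90 ± 0.53, -2.65 ± 0.60 and -2.60 ± 0.59 from control means of 1.09, 1.14 and 0.7 CPM. They share reads, and each overlapped because control animal 31 was at 0 to 0.143 CPM. Mup20, known as darcin, moved up, from 40, 13.6, 14, 10.9 and 14.1 CPM in the controls to 62.5, 53.3, 63.7, 64.3 and 22.3 CPM in the HF/HS livers, where control 31 lay above HF/HS animal 281 and the other animals were apart (1.52 ± 0.32). The male-biased hydroxylase Cyp4a12b rose as well (1.82 ± 0.39), at 1.86, 6.72, 3.16, 1.65 and 3.07 CPM and 14.6, 16.3, 13.3, 13.6 and 1.75 CPM, with HF/HS animal 281 inside the control range. C4a, a complement protein of the male-biased list, changed by -1.90 ± 0.33.

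Genes of growth hormone signalling and its targets were lower in 10 of 21 cases, and 0 rose (median -0.42). The growth hormone receptor Ghr was at 517.0, 838.1, 817.5, 1256.8 and 744.0 CPM in the controls and 447.3, 462.9, 483.2, 442.3 and 447.6 CPM in the HF/HS livers, a change of -0.87 ± 0.14 (edgeR adjusted p = 1.99e-06). Igf1, the growth factor it induces, was at 1019.7, 1312.9, 1207.1, 1143.6 and 1358.7 CPM and 572.7, 658.7, 700.3, 597.5 and 830.8 CPM (-0.85 ± 0.12), and Igfals, which stabilises it in blood, at 148.2, 157.5, 152.5, 140.2 and 161.2 CPM and 48.3, 62.3, 50.4, 45.8 and 70 CPM (-1.46 ± 0.21). For each of the 3, all HF/HS livers were below all controls. The prolactin receptor Prlr changed by -1.37 ± 0.23 and the oestrogen receptor Esr1 by -0.91 ± 0.22, both without overlap. Igfbp1, a binding protein that insulin represses, was at 147.8, 60.2, 77, 514.1 and 351.1 CPM and 60.3, 62.9, 58.2, 59.3 and 60.2 CPM. The HF/HS livers lay within 58.2 to 62.9 CPM, while the controls ran from 60.2 to 514.1 CPM (-1.93 ± 0.58, adjusted p = 0.00748, or 0.0703 with the range of the animal numbers as a covariate). Egfr changed by -1.46 ± 0.38, with animal 31 at 1165.6 CPM, and did not pass without it (-0.83, adjusted p = 0.0519).

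Drug-metabolising enzymes were lower more often than higher: of 35 P450 and conjugating genes tested, 3 rose and 10 fell, with a median of -0.48. Cyp2e1, which oxidises ethanol and fatty acids, did not pass (-0.33 ± 0.15, adjusted p = 0.0746), but passed without control animal 31 (-0.49, adjusted p = 0.00725), without HF/HS animal 121, in limma voom and with the other scaling reference. Nor did Cyp2b10 (0.45 ± 0.51), and Cyp2b9 was too rare to be tested, with 14 counts over the controls and 2 over the HF/HS livers. Beside Cyp3a11, the 3 that rose included the carboxylesterase Ces1g (1.31 ± 0.40) and Cyp3a25 (0.36 ± 0.14). Glutathione genes moved the other way, with 11 of 26 higher and 2 lower (median 0.45). Slc7a11, which imports cystine for glutathione, was at 0.143, 0.424, 0, 0.501 and 0.263 CPM in the controls and 2.14, 1.58, 0.895, 3.14 and 1.24 CPM in the HF/HS livers, without overlap (2.70 ± 0.51, edgeR adjusted p = 3.76e-05). Among the glutathione transferases, which share reads, Gsta1 changed by 2.99 ± 0.66, Gstm3 by 2.17 ± 0.41 and Gstm2 by 1.33 ± 0.26. The members that fell, catalase (Cat, -0.29 ± 0.09) and the superoxide dismutase Sod1 (-0.24 ± 0.08), remove peroxide and superoxide.

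Genes of the extracellular matrix formed the list with the most members higher in number. Of 39 tested, 32 rose and 2 fell, with a median of 1.46, and 27 had HF/HS values wholly above the controls, against 11.1% of all genes. Col1a1 (chr11:94936224-94953042, plus strand), a chain of fibrillar type I collagen, was at 7.02, 4.48, 4.66, 4.65 and 4.64 CPM in the controls and 110.1, 72.1, 35.7, 129.8 and 48.2 CPM in the HF/HS livers, a log2 fold change of 3.96 ± 0.44 (edgeR adjusted p = 1.23e-09). Its partner chain Col1a2 was at 17.2, 10.3, 10.3, 8.8 and 11.2 CPM and 95.2, 68.1, 39.6, 105.5 and 50.2 CPM (2.63 ± 0.33). Type III collagen, Col3a1, was at 39.7, 25.7, 27.5, 23.7 and 25.6 CPM and 201.7, 170.1, 82.2, 219.8 and 102.2 CPM (2.45 ± 0.32). For all 3, animals 122, 111 and 112 were highest, animals 121 and 281 were lowest, and control animal 31 was the highest control without reaching the HF/HS range. Proteases that cut matrix rose too. The macrophage elastase Mmp12 was at 0.931, 0.969, 1.36, 5.72 and 1.66 CPM and 39.5, 31.8, 13.6, 37.9 and 53.1 CPM (4.05 ± 0.53), Mmp2 changed by 3.06 ± 0.31 and Mmp7, known from bile duct epithelium, by 3.34 ± 0.40. Timp1, a protease inhibitor, was at 0.358, 0.0606, 0.215, 0.358 and 0 CPM and 1.94, 1.81, 0.631, 2.63 and 1.13 CPM, without overlap (2.97 ± 0.53). The 2 members that fell were Col5a2, at 426.7, 249.5, 220.3, 244.8 and 187.8 CPM in the controls and 37.8, 39.8, 37, 61.6 and 50.9 CPM in the HF/HS livers (-2.55 ± 0.27), and fibronectin Fn1, which hepatocytes secrete into plasma (-0.55 ± 0.12). Both had separate ranges.

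Markers of the cells that make matrix moved less as a group: of 18 stellate cell and fibroblast markers tested, 6 rose and 1 fell, with a median of 0.18. The platelet-derived growth factor receptors Pdgfra and Pdgfrb changed by 1.42 ± 0.17 and 1.31 ± 0.17, Cygb, a globin of stellate cells, by 1.49 ± 0.21 and Dpt, a matrix protein of fibroblasts, by 2.41 ± 0.34. In each of the 4 the HF/HS livers were all above the controls. The member that fell was the matrix protein Ecm1 (-0.48 ± 0.09). Acta2, the actin of activated stellate cells and of smooth muscle, was at 8.31, 8.3, 6.53, 10 and 14.5 CPM in the controls and 9.27, 9.99, 7.37, 8.76 and 6.33 CPM in the HF/HS livers, overlapped and did not pass (-0.18 ± 0.20, edgeR adjusted p = 0.497).

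General macrophage markers were higher in the HF/HS livers. Of 20 tested, 16 rose and 1 fell, with a median of 1.15, and 6 had HF/HS values wholly above the controls, against 11.1% of all genes. The mean log2 CPM of the list was 4.25 in control animal 31, 2.98 to 3.70 in the other controls and 4.31 to 5.21 in the HF/HS livers. Cx3cr1, the fractalkine receptor of monocyte-derived cells, was at 2.51, 2, 1.65, 2.22 and 0.701 CPM in the controls and 19.2, 14.6, 10.4, 23.1 and 11.5 CPM in the HF/HS livers (3.10 ± 0.36, edgeR adjusted p = 2.35e-09). Ccr2, the chemokine receptor that draws monocytes into tissue, was at 7.02, 5.45, 6.74, 4.94 and 3.68 CPM and 21.3, 17.9, 17.6, 30.7 and 18.2 CPM (1.92 ± 0.31). Neither overlapped, and animal 122 was highest for both. Ms4a7 changed by 3.17 ± 0.39, lysozyme Lyz2 by 1.88 ± 0.25 and the lysosomal protein Cd68 by 1.5 ± 0.28, also without overlap. Markers of Kupffer cells, the resident macrophages of liver, did not move together: 1 of 10 rose (Cd207, 1.91 ± 0.52), 1 fell (the haemoglobin scavenger receptor Cd163, -1.72 ± 0.37) and the median was 0.01. Their defining lectin Clec4f was at 123.2, 40.1, 85, 66.2 and 56.8 CPM and 72.8, 93.8, 76.1, 93.1 and 109.2 CPM and did not pass (0.26 ± 0.22, adjusted p = 0.375). In limma voom Clec4f passed (0.45, adjusted p = 0.0493).

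Lipid-associated macrophages gather around fat-laden cells. Of 16 of their markers tested, 9 rose and 2 fell, with a median of 2.14. Trem2, their lipid receptor, was at 1.15, 0.363, 0.502, 0.644 and 0.525 CPM in the controls and 6.88, 4.85, 2.32, 6.13 and 7.68 CPM in the HF/HS livers, without overlap (3.12 ± 0.45, edgeR adjusted p = 3.24e-07). Osteopontin (Spp1), which bile duct cells also make, was at 14.7, 15.6, 16.4, 12.2 and 11.6 CPM and 100.3, 72.2, 80.9, 109.2 and 73.9 CPM (2.63 ± 0.27). Galectin 3 (Lgals3) changed by 2.40 ± 0.34 and the membrane protein Cd63 by 1.87 ± 0.24. The members that fell were Fabp5, described above, and the acid phosphatase Acp5 (-0.17 ± 0.06). HF/HS animal 121 was the lowest HF/HS liver for Gpnmb, Trem2, Lgals3 and Cd63, and its list mean of 5.08 (log2 CPM) lay below the 5.70 to 5.89 of the other 4 and above the 3.68 to 4.29 of the controls.

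**Figure D3:**
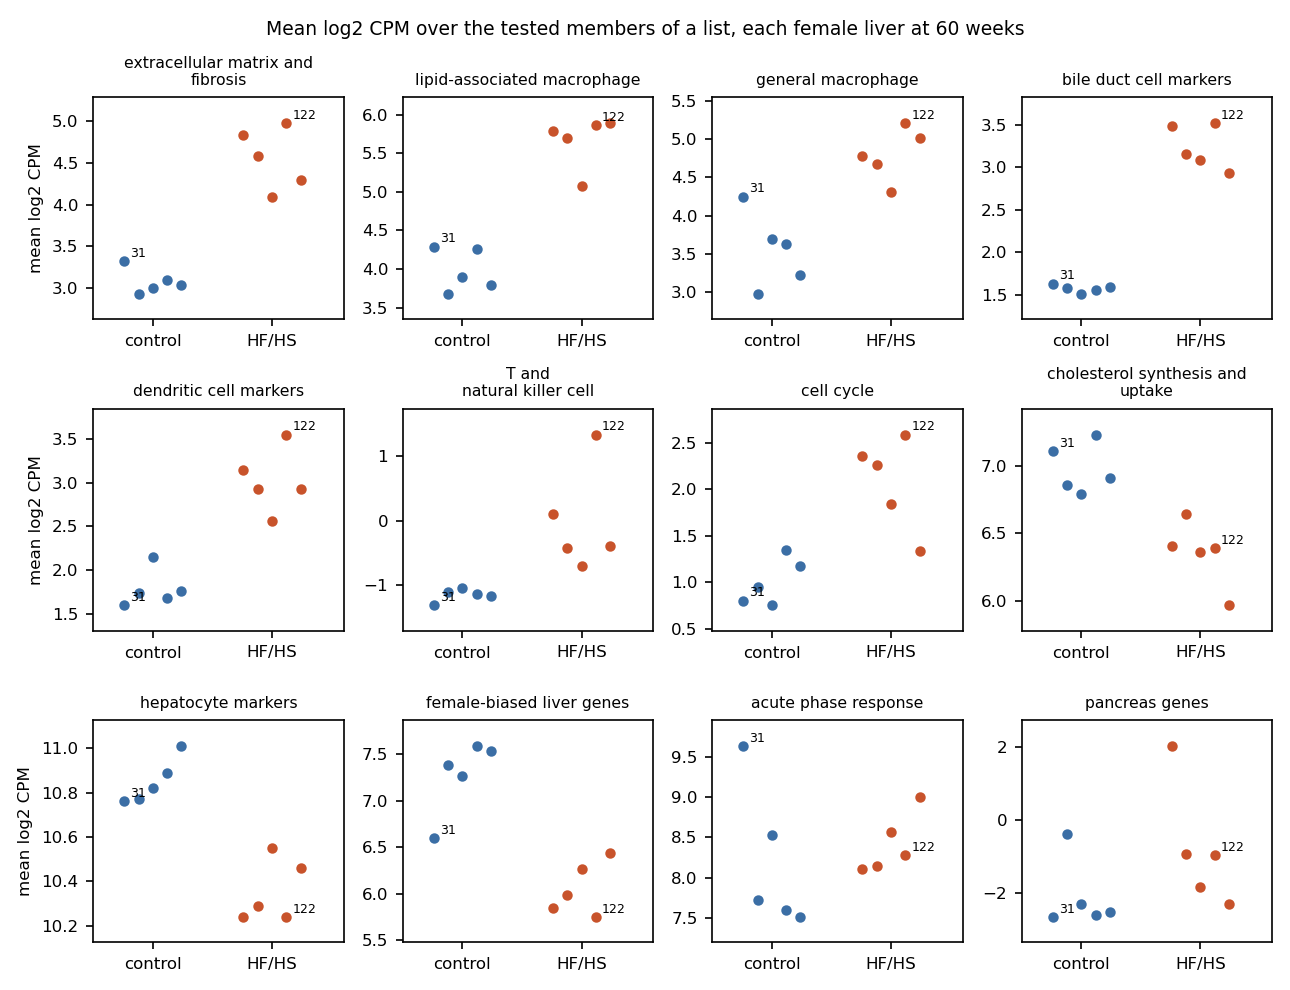
Mean log2 CPM over the tested members of 12 gene lists (y axis) in each liver, with controls in blue and HF/HS livers in orange and animals 31 and 122 labelled. The groups are apart for matrix, macrophage, bile duct, dendritic, T and natural killer cell, cholesterol, hepatocyte and female-biased lists, while cell cycle, acute phase and pancreas levels overlap.

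Marker lists of dendritic cells and of T and natural killer cells held more genes that rose than fell, which B and plasma cell markers did not. Of 15 dendritic cell markers tested, 10 rose and 0 fell, with a median of 1.84. H2-Eb1, a chain of the class II molecules that present antigen, was at 29.5, 23.6, 37.4, 23.3 and 20 CPM in the controls and 105.4, 93.8, 68.1, 183.2 and 115.8 CPM in the HF/HS livers (2.08 ± 0.26, edgeR adjusted p = 1.73e-08). Class II genes, H2-Aa (2.07 ± 0.28) and the invariant chain Cd74 (1.71 ± 0.24) among them, are also made by macrophages and B cells. The activation marker Cd83 changed by 2.09 ± 0.25 and the integrin Itgax by 2.98 ± 0.38, and none of the 5 overlapped. Clec9a, which marks conventional dendritic cells, was at 8.06 to 19.7 CPM and 8.97 to 14.3 CPM and did not pass (-0.25 ± 0.20). Of 21 T and natural killer cell markers in the count table, only 10 passed the count filter and were tested. Of these 10, 8 rose and 0 fell (median 1.71), from low levels. A rare gene can pass that filter through the groups where it is high, so this count does not describe the whole list. Cd3e, a subunit of the T cell receptor complex, was at 0.358, 0.424, 0.359, 0.0715 and 0.701 CPM in the controls and 2.14, 0.621, 0.895, 2.99 and 1.19 CPM in the HF/HS livers, where animal 112 lay inside the control range (2.05 ± 0.45). The granzyme Gzma was at 3.2 CPM in animal 122 and 0.105 to 0.199 CPM in the other 4, within the controls, and its change of 2.12 ± 0.72 turned to -0.23 without that animal. The chemokine receptor Cxcr6 changed by 2.09 ± 0.49 and the granule protein Nkg7 by 2.05 ± 0.48. Without animal 122, 4 of the 10 rose. Of 10 B and plasma cell markers, 1 rose (Cd22, 1.44 ± 0.27) and 2 fell: Sdc1, which hepatocytes also make (-0.56 ± 0.11), and the joining chain Jchain (-0.67 ± 0.27), whose adjusted p of 0.0476 was above the threshold without control 42, 191 or 192 or HF/HS animal 111, 112 or 122. Of 7 neutrophil markers tested, 0 passed, and 5 rose without control animal 31.

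The list of chemokines and cytokines, which recruit and activate these cells, rose in 17 of 26 cases and fell in 2, with a median of 1.49. Ubd, the ubiquitin-like modifier described above, was counted in this list though it is neither. Promoters were examined for NF-kB, the factor that drives many chemokine and cytokine genes in inflammation. The letters GGG, then any 2 bases, then TTTCC, on either strand, occurred in 6 of the 24 promoters with an entry (25%), against 1.4% of all 27025. The 2 strongest changes among these 6 were in Ubd and Cxcl2, whose windows of 250 bases before the start are shown with the match in capitals.
Ubd (chr17:37193642-37193891, plus strand): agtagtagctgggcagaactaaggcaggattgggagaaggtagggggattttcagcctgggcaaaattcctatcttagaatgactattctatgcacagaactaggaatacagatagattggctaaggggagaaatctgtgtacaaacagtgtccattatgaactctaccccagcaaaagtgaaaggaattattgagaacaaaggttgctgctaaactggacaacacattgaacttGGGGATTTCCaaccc
Cxcl2 (chr5:90903649-90903898, plus strand): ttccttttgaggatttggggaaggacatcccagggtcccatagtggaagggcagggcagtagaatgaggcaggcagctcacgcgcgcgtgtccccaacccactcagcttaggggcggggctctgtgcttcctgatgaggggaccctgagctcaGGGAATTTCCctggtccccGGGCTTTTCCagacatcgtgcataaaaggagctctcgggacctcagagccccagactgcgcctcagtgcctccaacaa
The neutrophil attractant Cxcl2 had 2 counts over the controls and was at 0.748, 1.47, 0.474, 0.979 and 0.395 CPM in the HF/HS livers, higher by a ratio of 28.3 (exact 95% counting interval 7.56 to 237.5). Cxcl5, which binds the same receptor, had 1 count over the controls and was at 1.54, 0.847, 0.21, 1.19 and 0.96 CPM, higher by a ratio of 66.9 (11.7 to 2672.1). The monocyte attractant Ccl2 was at 0.788, 0.485, 0.574, 1.5 and 0.35 CPM and 8.27, 5.98, 4.21, 9.95 and 4.69 CPM, without overlap (3.14 ± 0.42, edgeR adjusted p = 6.09e-08). Ccl3, made by activated macrophages, changed by 3.75 ± 0.57, Tnf by 2.56 ± 0.57 and interleukin 1 beta (Il1b) by 1.40 ± 0.41. The members that fell were Cxcl12 (-0.29 ± 0.10) and Il18 (-0.36 ± 0.12). Animal 122 was the highest liver for Ccl2, Ccl3, Tnf and Il1b alike.

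Interferon-induced genes did not move as a group: of 29 tested, 5 rose and 1 fell, with a median of 0.22. The letters GAAA, any 2 bases and GAAA again were in 10 of their 20 promoters (50%), against 3.04% of all promoters, as a description of the list. Cxcl10, which attracts T cells, was at 1.07, 2.85, 2.22, 3.58 and 0.876 CPM in the controls and 6.58, 5.93, 3.21, 18.1 and 4.29 CPM in the HF/HS livers (1.82 ± 0.37, edgeR adjusted p = 0.00011, and 1.18 without animal 122). Its relative Cxcl9 was at 121.1 CPM in animal 122, within 15.4 to 27.2 CPM in the other HF/HS livers, and did not pass (1.07 ± 0.47), except without HF/HS animal 121 or 281 (adjusted p = 0.0339 and 0.04). Ifit2 changed by 1 ± 0.20, Ifi27l2a by 1.30 ± 0.30, Oasl2 by 0.65 ± 0.22 and Mx1 by 0.68 ± 0.22, and the member that fell was the signalling factor Stat2 (-0.29 ± 0.09). Without animal 122, 3 of the 29 rose and Mx1 did not pass, and without animal 121, 8 rose.

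Acute phase proteins, made by hepatocytes under inflammatory cytokines, depended on 1 control. Of 24 tested, 0 rose and 7 fell, with a median of -0.27, and without animal 31 the counts were 3 higher and 1 lower. Serum amyloid Saa1, which shares reads with its relatives, was at 2154.9, 141.3, 670.9, 58.7 and 66.6 CPM in the controls and 182.8, 201.8, 413.3, 259.9 and 853.6 CPM in the HF/HS livers (-0.69 ± 0.78, not passed, and 0.67 without animal 31). Lipocalin Lcn2 was at 1255.6, 90.7, 360.9, 159.9 and 139.1 CPM and 389.1, 386.8, 571.8, 500.8 and 779.5 CPM (0.39 ± 0.75, not passed). In both, animal 31 was the highest of all 10 livers, animal 42 was the next highest control and animal 281 was the highest HF/HS liver. Apcs, the serum amyloid P component, changed by -1.66 ± 0.58, Itih3 by -0.84 ± 0.32 and Itih4 by -0.80 ± 0.25, and none passed without animal 31, nor Itih3 without HF/HS animal 111, 112 or 122. Serpina3m, a protease inhibitor of a family that shares reads, was lower in every HF/HS liver (-0.97 ± 0.15).

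Bile duct markers rose by large factors from low levels. Of 18 tested, 13 rose and 1 fell, with a median of 2.17, and the list mean was 1.51 to 1.63 in the controls and 2.93 to 3.52 in the HF/HS livers (log2 CPM). Cftr, the chloride channel of ducts, was at 0.931, 0.303, 0.359, 0.429 and 0.613 CPM in the controls and 8.82, 5.7, 6.95, 9.69 and 5.76 CPM in the HF/HS livers (3.81 ± 0.45, edgeR adjusted p = 4.88e-09). Epcam, an adhesion protein of ducts and progenitor cells, was at 0.788, 0.909, 0.574, 0.787 and 0.701 CPM and 5.33, 4.8, 5.16, 6.85 and 3.22 CPM (2.74 ± 0.34). The keratins of ducts, Krt7 and Krt19, changed by 2.41 ± 0.35 and 1.93 ± 0.37. All HF/HS livers were above all controls for these 4 genes. Tspan8 changed by 3.49 ± 0.37, the protease St14 by 3.21 ± 0.35, and Cldn4, a tight junction protein, was higher by a ratio of 30.2 (exact 95% counting interval 10.1 to 148.6) on 3 control counts. The member that fell was the epithelial cadherin Cdh1, which hepatocytes also make (-0.78 ± 0.26). Markers of hepatocytes fell in 15 of 19 cases and rose in 0, with a median of -0.47, so that they were smaller changes of far more abundant RNAs. Albumin was at 15727.8 ± 1310.9 CPM (SD, n = 5) in the controls and 11041.3 ± 738.1 CPM in the HF/HS livers (-0.51 ± 0.08), and the apolipoprotein Apoc3 changed by -0.69 ± 0.08 and the histidine lyase Hal by -0.90 ± 0.12, all without overlap. The master factor Hnf4a changed by -0.36 ± 0.10, with HF/HS animals 121 and 281 inside the control range. Because CPM are relative to a scaled library size, the hepatocyte decrease and the gains of rarer cell types need not be independent values, and their parts were not tested.

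Genes of fetal liver and liver tumours split, with 12 of 23 higher and 6 lower (median 0.94). Sox4, a factor of progenitor cells, was at 2.08, 4.42, 4.16, 4.08 and 3.68 CPM in the controls and 43.7, 42.1, 27.9, 56.8 and 23 CPM in the HF/HS livers (3.39 ± 0.32, edgeR adjusted p = 2.16e-11). The imprinted RNA H19 was at 50.1, 5.69, 6.24, 13.5 and 7.36 CPM and 240.6, 129.9, 259.1, 362.5 and 219.9 CPM (3.87 ± 0.58). Its imprinted neighbour Igf2 was at 24.9, 13, 17.4, 19.7 and 13.1 CPM and 49.4, 32.2, 59.9, 67.2 and 69.9 CPM (1.66 ± 0.32). For all 3 genes every HF/HS liver was above every control. No source used here says how the counting used strand, so reads of overlapping or antisense genes at H19 and Igf2 cannot be told apart. Annexin Anxa2 changed by 1.94 ± 0.31. Of the oncofetal genes Gpc3 and Afp, Gpc3 was lower (-1.17 ± 0.28) and Afp did not pass (0.52 ± 0.35), but Afp passed in limma voom (0.98, adjusted p = 0.0291). The steroid reductase Akr1c18 changed by -2.25 ± 0.35. Scara5, a ferritin receptor, changed by -4.76 ± 1 through animal 31 alone (106.6 CPM, others 0.358 to 1.21), and was at 0.12 without it.

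Cell cycle genes rose in 21 of 30 cases and fell in 1, with a median of 1.34, from low levels. Mki67, a protein of dividing cells, was at 8.59, 4.97, 6.96, 12.7 and 9.2 CPM in the controls and 32.4, 29.2, 15.9, 43.9 and 14.1 CPM in the HF/HS livers (1.68 ± 0.45, edgeR adjusted p = 0.00246). Top2a, which untangles DNA in mitosis, was at 2.86, 2.24, 2.58, 3.43 and 3.24 CPM and 14.6, 13.2, 8.79, 19.8 and 4.8 CPM (2.10 ± 0.42). Animals 121 and 281 were the least high for both, and neither gene overlapped. The mitotic genes Bub1, Ccnb1 and Cdc20 changed by 3.60 ± 0.59, 2.73 ± 0.69 and 2.25 ± 0.56. The member that fell was thymidine kinase Tk1 (-0.71 ± 0.23). Targets of p53 moved down: of 19 genes of p53 and senescence, 0 rose and 9 fell (median -0.29). Cdkn1a, the p21 inhibitor of the cell cycle, was at 136.9, 172.0, 164.2, 199.7 and 274.0 CPM and 98.2, 66, 81.9, 49.6 and 99.6 CPM, separate ranges with a change of -1.26 ± 0.46 (adjusted p = 0.0261, and above the threshold without control 192 or HF/HS animal 122). The stress hormone Gdf15 changed by -1.18 ± 0.35 and Sesn2 by -1.01 ± 0.18, without overlap, and the kinase Plk3 by -1.20 ± 0.40, with overlap and not passing without control 192.

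Endoplasmic reticulum stress genes fell in 14 of 24 cases and rose in 1, with a median of -0.43. Hspa5, the chaperone BiP, was at 606.0, 955.9, 864.4, 922.8 and 854.5 CPM in the controls and 506.7, 578.1, 757.2, 465.6 and 680.8 CPM in the HF/HS livers, where animals 121 and 281 overlapped the lowest control (-0.49 ± 0.16, edgeR adjusted p = 0.0106). Herpud1 changed by -0.96 ± 0.29, Chac1, which degrades glutathione, by -1.39 ± 0.37 and Sdf2l1 by -0.85 ± 0.27. Atf3, which also belongs to the immediate early genes, was the member that rose (1.73 ± 0.36). Of 24 heat shock and immediate early genes, 8 rose and 1 fell (median 0.18). The AP-1 subunit Fosl1 had 0 counts in the controls and was at 0.548, 0.621, 0.21, 0.825 and 0.395 CPM in the HF/HS livers, which is at least 12.1-fold higher when 3 counts are taken as the floor of the control group as a whole, and the list's median does not change with Fosl1 at that bound. The growth factor-induced genes Egr2 and Egr3 changed by 3.14 ± 0.45 and 2.19 ± 0.40, without overlap, and Ier2 was the member that fell (-0.66 ± 0.12).

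**Figure D4:**
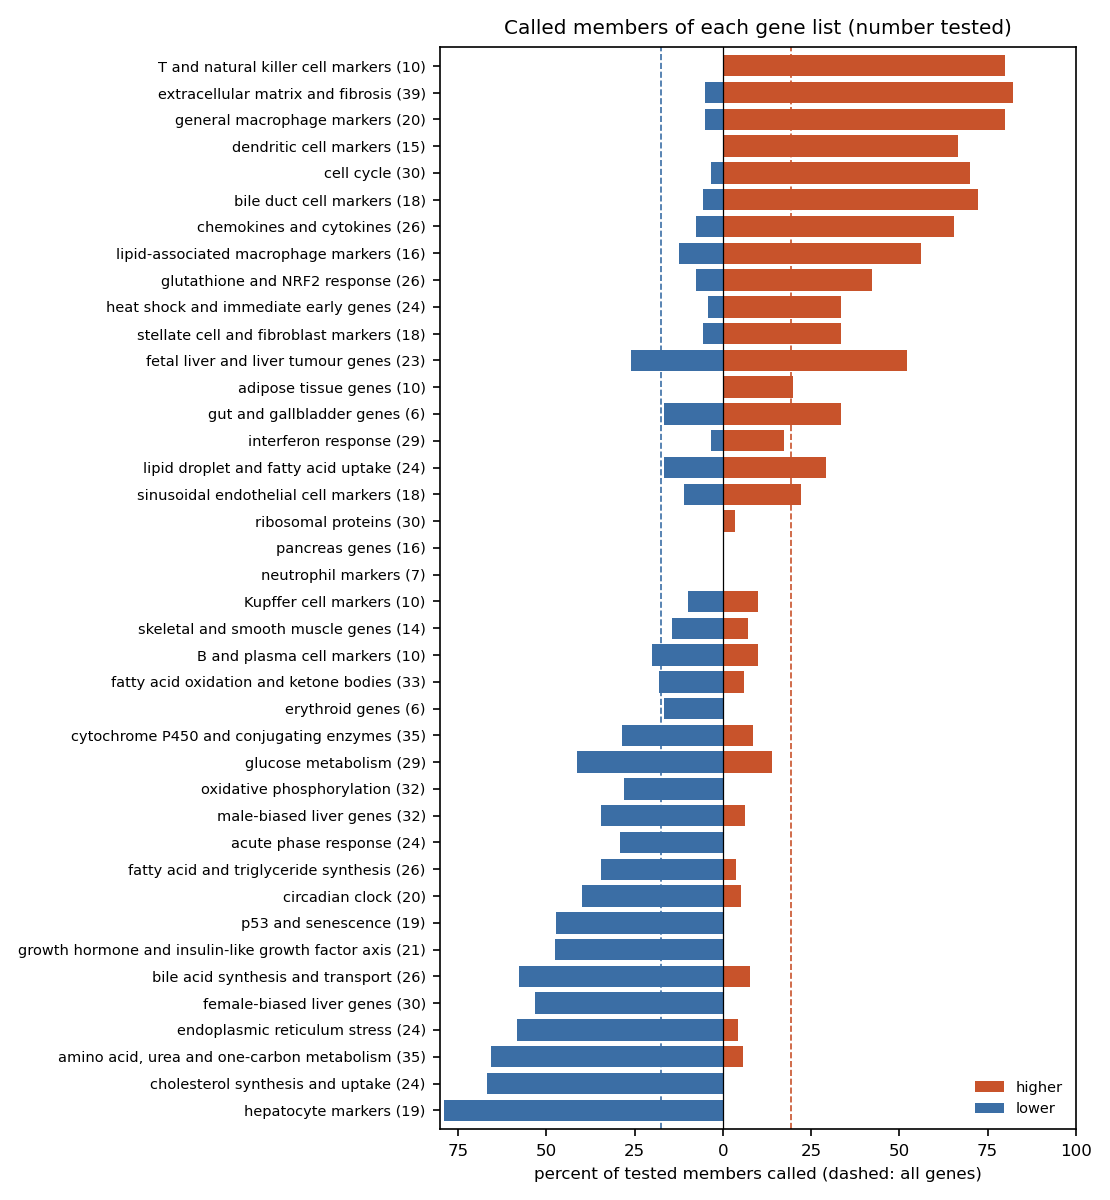
Percent of the tested members of each of 40 gene lists that were called higher (orange, right) or lower (blue, left) in female livers at 60 weeks, with the number tested in brackets. Dashed lines mark the 19.4% and 17.6% of all genes called higher and lower. Matrix, bile duct, cell cycle, chemokine, dendritic, T and natural killer cell, general macrophage and lipid-associated macrophage lists extend to the right. The T and natural killer cell bar covers only the 10 members that passed the count filter, of 21 in the count table. Hepatocyte, cholesterol and amino acid lists extend to the left. Neutrophil, B and plasma cell, Kupffer cell and interferon lists stay short of the dashed line on the right.

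Of the lists kept for other processes, 8 of 20 circadian clock genes were lower and 1 was higher (median -0.29). Dbp, an output factor of the clock whose level swings over the day, was at 0.501, 1.39, 3.66, 0.787 and 1.58 CPM in the controls and 5.68, 5.98, 11.2, 9.28 and 10.9 CPM in the HF/HS livers (2.44 ± 0.83, edgeR adjusted p = 0.0166), while Nfil3, its antagonist, changed by -1.20 ± 0.31, Per1 by -1.06 ± 0.40 and Ciart by -1.64 ± 0.58. Dbp and Nfil3 had separate ranges. Ciart did not pass without control 192, and Per1 did not pass without control 191 or 192 or HF/HS animal 112, 122 or 281. The labels do not state the hour at which a liver was collected, and its part in these values was not tested. Of 30 ribosomal protein genes, 1 was higher (Rpl5, 0.20 ± 0.07), which did not pass without any 1 of 7 of the 10 libraries (controls 32, 42, 191 and 192 and HF/HS animals 121, 122 and 281), and 0 were lower. With the other scaling reference 0 were higher and 3 lower. Genes of oxidative phosphorylation were lower in 9 of 32 cases and higher in 0 (median -0.16), with 15 lower with the other scaling reference and 26 lower without animal 31. Of these, Uqcrq of complex III had separate ranges (-0.35 ± 0.06), and the complex I and IV subunits Ndufb8, Ndufa1 and Cox7c changed by -0.41 ± 0.11, -0.32 ± 0.08 and -0.33 ± 0.09.

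Markers of tissues other than liver cells were examined because they could enter a dissected sample. Markers of sinusoidal endothelial cells, which are cells of the liver itself, are given beside them. Of 16 pancreas genes tested, 0 passed, and their mean log2 CPM was 2.03 in HF/HS animal 111 and -0.37 in control 32, against -2.64 to -0.91 in the other 8. Of 14 muscle genes, 1 rose (Smtn, 0.57 ± 0.10) and 2 fell (Myh11, -0.78 ± 0.22, and Cnn1, -1.26 ± 0.49, which did not pass without control 191 or 192 or HF/HS animal 112 or 281). The skeletal muscle genes Myh2 and Ckm were at 10.8 and 6.55 CPM in HF/HS animal 112, at 1.92 and 1.24 CPM in animal 281 and at 0.358 CPM or less in the other 8. Of 10 adipose genes, 2 rose, Cidea and the fat cell regulator Pparg (1.70 ± 0.29), and both are also known in fatty hepatocytes. Adiponectin did not pass. Of 6 erythroid genes tested, the erythropoietin receptor Epor was lower (-0.94 ± 0.34) and the 4 haemoglobin genes looked for were at 0 counts. Of 18 endothelial markers, 4 rose and 2 fell (median -0.03): Cd34 changed by 1.70 ± 0.26, Pecam1 by 0.46 ± 0.10, Clec14a by 0.44 ± 0.11 and the cadherin Cdh5 by 0.30 ± 0.10, while the growth factor Bmp2 changed by -0.65 ± 0.16 and the sinusoidal lectin Clec4g by -0.32 ± 0.10. Of 6 gut and gallbladder genes tested, the epithelial mucin Muc13 was at 0.0716, 0.787, 0.646, 1.07 and 0.701 CPM in the controls and 18.5, 24.2, 7.47, 12.3 and 10.6 CPM in the HF/HS livers, without overlap (4.46 ± 0.71, edgeR adjusted p = 2.47e-06). Sprr1a, a protein of squamous epithelium, changed by 1.48 ± 0.58 with control 191 at 7.87 CPM, a call lost without control 31, 32, 42 or 192 or HF/HS animal 111, 112 or 122, and the immunoglobulin receptor Pigr by -0.23 ± 0.06. The part of tissue admixed from outside the liver in the results above was not tested.

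The diet effect was then set against that in males fed for the same time. In a test of the difference (female minus male), 121 of 14180 genes (0.853%) passed in edgeR, 60 with a higher log2 fold change in females (0.423%) and 61 with a lower one (0.43%). This test and those over time use the same 10 libraries as the effect above. In males alone 3971 genes (28%) passed, 2196 of them higher (15.5%) and 1775 lower (12.5%). Fitted to the 4 groups alone, the test called 68, and without HF/HS animal 122 it called 75. Cyp3a11 was at 419.7 ± 312.3 CPM (SD, n = 5) in male controls and 1306.0 ± 590.5 CPM in male HF/HS livers, against 5.68 ± 0.65 and 572.9 ± 306.3 CPM in females, so the male effect was 1.64 ± 0.44 and the difference 5.02 ± 0.67 (adjusted p = 2.61e-06). Mtnr1a was at 8.09 ± 2.03 CPM in male controls and 12.3 ± 1.5 CPM in male HF/HS livers. In females it was at 0.0716 ± 0.0716 and 3.17 ± 1.73 CPM, so the female HF/HS mean stayed below that of male controls. Its male effect was 0.60 ± 0.24 and the difference 4.73 ± 0.59 (edgeR adjusted p = 6.12e-07). Gpnmb was at 10.5 ± 10.3 CPM in male controls and 23.8 ± 9.48 CPM in male HF/HS livers, and the difference was 4.35 ± 0.75 (adjusted p = 0.000398, or 0.0544 in the 4 groups alone). Omd, a matrix proteoglycan, rose in females from 0, 0.121, 0.215, 0.215 and 0.175 to 2.84, 1.35, 2.05, 3.2 and 0.847 CPM (3.79 ± 0.61), with a male effect of -0.21 ± 0.25 and a difference of 4 ± 0.68. On average, male controls held more Cyp3a11, Mtnr1a, Gpnmb and Lrtm2 than female controls did. Cacna1h differed by -4.50 ± 0.95 (adjusted p = 0.00581, or 0.0758 in the 4 groups alone). Cacna1h and Sult4a1 were rare in males on both diets (means of 0.139 to 0.252 CPM), against means of 4.65 and 7.47 CPM in female controls. The difference of Scara5 (-5.21 ± 1.22) rested on control animal 31 and was -0.31 without it. Lrtm2 (3.18 ± 0.76) and Sult4a1 (-4.37 ± 1.10) had adjusted p of 0.0197 and 0.0342. Neither passed in the 4 groups alone. Lrtm2 did not pass without female control 42, female HF/HS animal 122 or male control 21, and Sult4a1 did not pass without female control 191, female HF/HS animal 122, male control 21 or 22 or male HF/HS animal 92, 101, 251 or 252.

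Few members of the lists passed that test, which only 0.853% of all genes passed, so a count of 0 in a list says little about that list. For the cholesterol list, 16 of 24 fell in females, 1 rose and 2 fell in males at 60 weeks, and 0 differed between the sexes, with a median difference of -0.59. Among matrix genes 29 of 39 rose and 2 fell in males, and 3 differed: 2 with a larger female effect, Col5a3 (1.61 ± 0.29) and Mmp12 (3.11 ± 0.69, edgeR adjusted p = 0.00904), and 1 with a lower value, Col5a2 (-1.85 ± 0.37, adjusted p = 0.00412). The bile acid carrier Slco1a1 had a lower effect in females (-1.36 ± 0.25, adjusted p = 0.00121), with a male effect of -0.45 ± 0.18 that did not pass. Fabp5 differed by -2.69 ± 0.64 (adjusted p = 0.0197), where the male effect of 0.83 ± 0.48 was of the opposite sign and did not pass, while Scd2 (2.96 ± 0.52), Mup20 (2.05 ± 0.44), Cyp4a12b (2.01 ± 0.49), Osbpl3 (2.93 ± 0.73), Cxcl2 (3.63 ± 0.93) and Sox4 (1.67 ± 0.44) had a higher female value, with a highest adjusted p of 0.0446. Pancreas genes were lower in HF/HS than in control males at 60 weeks (15 of 16) and 0 differed between the sexes, and the part of such tissue in these values was not tested. Jchain, which joins antibody chains, fell in females and had a male effect of 1.45 ± 0.29, a difference of -2.11 ± 0.40 (adjusted p = 0.00151).

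Against females fed for 20 weeks, the 60-week effect differed at 2652 genes (18.7%), 1365 with a higher and 1287 with a lower log2 fold change (9.63% and 9.08%). At 20 weeks 2873 genes (20.3%) had passed, 1352 higher (9.53%) and 1521 lower (10.7%). At 40 weeks 4018 (28.3%) had passed, 2128 higher (15%) and 1890 lower (13.3%). Matrix genes stood at 8 of 39 higher at 20 weeks, 32 at 40 weeks and 32 at 60 weeks, and 20 of them had a larger effect at 60 than at 20 weeks. Pancreas genes, at 0 of 16 called at 20 and 60 weeks, were lower in 16 of 16 cases at 40 weeks, and their part in that time point was not tested. General macrophage markers stood at 1, 4 and 16 of 20 higher, with 15 larger at 60 than at 20 weeks, and bile duct markers at 2, 12 and 13 of 18, with 11 larger. Col1a1 was at 4.03 ± 1.03 CPM (SD, n = 5) in controls and 11 ± 4.55 CPM in HF/HS livers at 20 weeks, an effect of 1.46 ± 0.45, and its difference was 2.50 ± 0.62 (edgeR adjusted p = 0.00429). Spp1 had an effect of 0.33 ± 0.27 at 20 weeks and differed by 2.29 ± 0.38, and Lyz2, at -0.02 ± 0.25, by 1.89 ± 0.35. Pdgfra had an effect of -0.46 ± 0.17 at 20 weeks and differed by 1.88 ± 0.24 (adjusted p = 2.09e-06). H19 was at 7.8 ± 5.39 CPM in controls and 6.7 ± 1.51 CPM in HF/HS livers at 20 weeks, and differed by 4.08 ± 0.83. Osbpl3 differed by 3.62 ± 0.89 and the ubiquitin protease Usp43 by 3.40 ± 0.91 (adjusted p = 0.00718, and 0.0554 without 20-week control 202).

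Other lists were already moved at 20 weeks. In the cholesterol list 17 of 24 had fallen at 20 weeks and 17 at 40 weeks, and 2 differed between 60 and 20 weeks, both with a higher log2 fold change at 60 weeks (Idi1, 1.32 ± 0.39, and Msmo1, 0.86 ± 0.32). Cell cycle genes stood at 14 of 30 higher at 20 weeks and 1 differed. Ribosomal proteins stood at 26 of 30 lower at 20 weeks, 25 lower at 40 weeks and 0 lower at 60 weeks, and 23 had a higher effect at 60 than at 20 weeks. Of 19 hepatocyte markers, 6 had a lower effect at 60 than at 20 weeks and 0 a higher one. Among single genes whose diet effect was lower at 60 weeks, Sult3a1 differed by -4.36 ± 0.66 (edgeR adjusted p = 1.57e-05), Sult3a2 by -3.67 ± 0.48, Slco1a1 by -1.33 ± 0.25, Cux2 by -1.95 ± 0.58 and albumin by -0.43 ± 0.12 (adjusted p = 0.00742). Malrd1, a gene tied to bile acid feedback, was at 0.501, 21.7, 11.8, 19.8 and 30.8 CPM in the 60-week controls and 1.84, 1.47, 1.74, 1.19 and 1.86 CPM in the HF/HS livers, where control 31 was the only low one (-3.38 ± 0.46), and differed by -4.59 ± 0.63 from 20 weeks. Cacna1h differed by -4.80 ± 1.10 and Rnase2a by -5.69 ± 2.06 (adjusted p = 0.0458, a call lost in 14 of the 20 fits that each left out 1 library). Cacna1h was rare at 20 weeks on both diets (0.134 ± 0.0829 CPM in controls and 0.157 ± 0.0617 CPM in HF/HS livers). At 60 weeks its controls were at 4.65 ± 4.5 CPM and its HF/HS livers at 0.195 ± 0.145 CPM, so the difference lay in the level of the 60-week controls. Sprr1a had an effect of 7.34 ± 1.01 at 20 weeks and differed by -5.86 ± 1.30, with control 191 high at 60 weeks. The muscle genes Myh2 (6.35 ± 2.33) and Ckm (6.54 ± 2.36) differed between 60 and 20 weeks with adjusted p of 0.0481 and 0.0445. Without HF/HS animal 112 the differences were 3.97 and 4.17, and without 20-week control 203 they were 3.70 and 4.49. Neither passed in these fits, in DESeq2, in limma voom, in the 4 groups alone or in several other fits without 1 library.

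No gene passed the test of 60 against 40 weeks in edgeR (0%), where the lowest adjusted p was 0.0633 and 1764 genes had an unadjusted p under 0.05. DESeq2 called 7 genes in that test and limma voom with quality weights 1775, and without control animal 31 edgeR called 462, so whether the female effect still changed after 40 weeks depended on the method and on that library. Effects of the genes described above at 40 weeks were 7.15 ± 0.59 for Cyp3a11, 4.75 ± 0.41 for Scd2, 3.55 ± 0.46 for Col1a1, 2.87 ± 0.47 for Cftr and -4.92 ± 0.52 for Sult3a1. None of these 5 differed between 60 and 40 weeks at the threshold (adjusted p from 0.591 to 0.984). Cux2 was at 99 ± 11.8 CPM in controls and 56.7 ± 5.89 CPM in HF/HS livers at 40 weeks, and its difference of -1.65 ± 0.58 did not pass (adjusted p = 0.229).

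**Figure D5:**
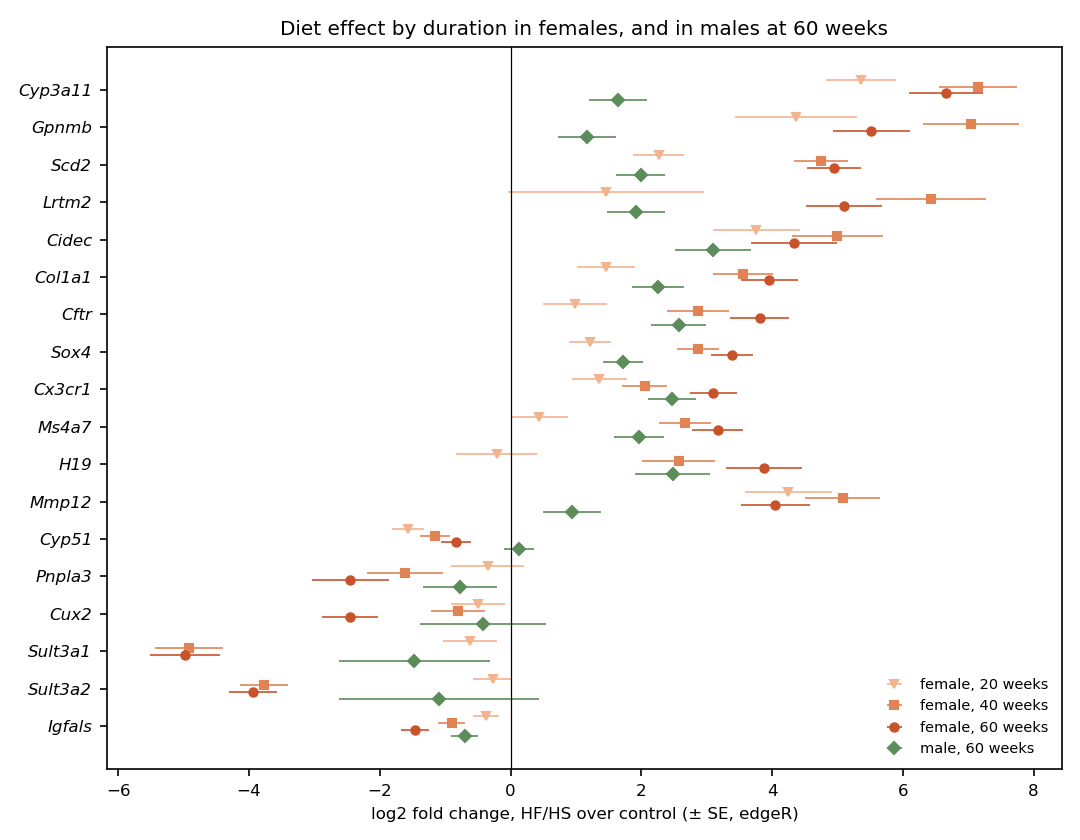
Log2 fold change of HF/HS over control (x axis, ± SE from edgeR) for 18 genes in females at 20, 40 and 60 weeks and in males at 60 weeks. Cyp3a11, Gpnmb and Mmp12 were already high in females at 20 weeks, Col1a1, Cftr, Sox4 and H19 sit higher at 60 than at 20 weeks, and the male values of Cyp3a11 and Gpnmb lie nearer 0 than the female ones.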

How the data were processed

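Livers were flash-frozen and total RNA was depleted of ribosomal RNA and sequenced with a stranded kit, per the labels' protocols. The deposited table holds whole-number read counts per gene, without normalization, for 60 libraries. The submitters' processing notes name mm10 as the build. The aligner, the counting program and its use of strand are not given in sources used here. Of 24982 gene entries, 26 carried date-like symbols (0.2007% of counts) and 0 were mitochondrially encoded.

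All 60 libraries were fitted as 12 group means with edgeR 4.0.16 in R 4.3.3: genes kept by filterByExpr (count minimum 10, total 15; 14180 genes), TMM scaling, quasi-likelihood F tests and Benjamini-Hochberg adjustment over all tested genes, with a threshold of 0.05. The test was also run on simulated counts with the same spread for every gene and no outlying animal. That run does not show how the test behaves in these data. The SE is the log2 fold change divided by the square root of F. List levels are means of log2 CPM with a prior count of 2. With 5 animals a group, their number limits the precision. Counting intervals are exact at 95% and cover counting error only.

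The comparisons and 40 gene lists (900 genes) were chosen with earlier results of these data known. Named genes are the 10 highest and 10 lowest log2 fold changes of called genes that average 1 CPM or more and have separate ranges, up to 4 called members of each list by size, 30 panel genes, and the 5 highest and 5 lowest genes per test of a difference. A further 39 list members (such as Alb, Col1a2, Igf1, Ghr, Ccl2 and Epcam), Clec9a and members named to complete a count of 5 or fewer were chosen after their values were seen. A few genes that this rule names are not reported here. Gene positions are from GENCODE M21, and 678 of the 900 list genes matched a RefSeq promoter. Alternatives were DESeq2 1.42.0, its size factors, limma 3.58.1 voom with quality weights, no filter, removal of small non-coding RNA genes, only the libraries compared, the range of the animal numbers as a covariate, a 2-fold minimum, leaving out each library and, added after seeing the data, another reference library for TMM (HF/HS male 261 at 20 weeks in place of control male 492 at 40 weeks).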

Additional observations from a re-analysis of the deposited data

Results flagged for a closer look

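In each group of 5 livers, the highest or lowest value was set against the others with Dixon's ratio (critical value 0.71) for 406 combinations of group and gene or list, and 55 stood apart. That critical value lets chance flag about 1 in 20 groups where values are normally distributed. Gene values were compared as CPM without a log scale, and many genes were named for large changes in these same data. The chance rate for these 406 combinations is therefore not known, and the 55 cannot be read as an excess over 1 in 20. Control animal 31 accounted for 24 of the 55, animal 122 for 7, animal 121 for 6, animal 281 for 5, animals 191 and 192 for 4 each, animals 42 and 112 for 2 each and animal 32 for 1.

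Control animal 31 was the high one for acute phase and plasma proteins, with Apcs at 1145.0 CPM (others 95 to 339.0), Itih3 at 3971.6 CPM (1004.4 to 1354.4), Serpina3m at 540.9 CPM (321.7 to 369.3), Lcn2 at 1255.6 CPM (90.7 to 360.9), A2m at 1938.3 CPM (1.22 to 19.6) and C4a at 183.1 CPM (54.2 to 74). It was also high for Egfr at 1165.6 CPM, Nfil3 at 111.4 CPM, Scara5 at 106.6 CPM, H19 at 50.1 CPM, Pkm at 44.8 CPM, Chac1 at 10.4 CPM, Hk2 at 7.38 CPM, Col1a1 at 7.02 CPM, Gpc3 at 6.02 CPM, Tspan8 at 2.72 CPM, Cidea and St14 at 0.644 CPM each and Cxcl5 at 0.0716 CPM (1 count), and its erythroid list mean was 3.76 on the log2 CPM scale (1.48 to 1.75). It was low for A1bg at 62.1 CPM (1962.7 to 2617.3), Ndufb8 at 103.3 CPM, Cox7c at 54 CPM and the oxidative phosphorylation list at 6.59 (6.94 to 7.02).

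Among the other controls, animal 191 was high for Sprr1a at 7.87 CPM, Mmp12 at 5.72 CPM and Cdc20 at 1.5 CPM and low for the male-biased list at 2.96. Animal 192 was high for Cyp4a14 at 34.4 CPM, Cd34 at 5.08 CPM, and Egr3 and Ckm at 0.35 CPM each. Animal 42 was high for Cidec at 3.16 CPM and the dendritic cell list at 2.15, and animal 32 for the pancreas list at -0.37 (-2.64 to -2.29).

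Among the HF/HS livers, animal 122 was high for immune genes: Ccr2 at 30.7 CPM, Ubd at 22.9 CPM, Cxcl10 at 18.1 CPM, Ifi27l2a at 12.3 CPM, Gzma at 3.2 CPM, Nkg7 at 2.01 CPM and Ccl3 at 1.8 CPM. Animal 121 was high for Cyp2e1 at 2156.1 CPM, Sult3a2 at 8.05 CPM, Scara5 at 1.58 CPM, Pcdh20 at 0.263 CPM and the P450 list at 7.12 (6.61 to 6.70), and low for the lipid-associated macrophage list at 5.08. Animal 281 was high for Cux2 at 61.5 CPM, Nr0b2 at 33.6 CPM, Sesn2 at 15.5 CPM and Cacna1h at 0.452 CPM, and low for the fatty acid oxidation list at 7.19. Animal 112 was high for the muscle genes Myh2 at 10.8 CPM and Ckm at 6.55 CPM.

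The diet effect differed between females and males at 60 weeks, by edgeR's test of the difference, in Mtnr1a (log2 difference 4.73), Cyp3a11 (5.02), Gpnmb (4.35), Omd (4), Lrtm2 (3.18), Cacna1h (-4.50), Scara5 (-5.21) and Sult4a1 (-4.37), of which Scara5 was not called without control animal 31. Between 60 and 20 weeks in females it differed in Malrd1 (-4.59), H19 (4.08), Osbpl3 (3.62), Usp43 (3.40), Cacna1h (-4.80), Sprr1a (-5.86), Rnase2a (-5.69), Myh2 (6.35) and Ckm (6.54), of which Myh2 and Ckm were not called without HF/HS animal 112, without 20-week control 203 or in DESeq2.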

How the results depend on the processing

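Between 4637 (without HF/HS animal 122) and 6132 genes (without control animal 31) passed the female test at 60 weeks when single libraries were left out, and 1507 passed with a change of at least 2-fold. In the fit of the 10 libraries alone, 4299 passed. The difference between the sexes, at 121 genes, gave 205 in DESeq2, 395 in limma voom with quality weights, 68 in the 4 groups alone, 79 at 2-fold or more, and 75 to 170 without single libraries, with the lowest count without HF/HS animal 122. The difference between 60 and 20 weeks gave 715 genes at 2-fold or more and 1884 to 3556 without single libraries. The difference between 60 and 40 weeks gave 0 genes in edgeR, 7 in DESeq2, 1775 in limma voom, and 0 to 462 without single libraries (462 without control animal 31, 2 without control animal 32 and 2 without 40-week control 453). Single genes that turned direction were Gzma (-0.23 without HF/HS animal 122 to 2.63 over libraries left out), Scara5 (0.12 without control animal 31, and down to -5.21), Cyp4a14 (0.01 in limma voom, 0.47 without control animal 192, and down to -0.45) and Saa1 (0.61 in limma voom, 0.67 without control animal 31, and down to -1.26). The cause was not tested beyond the library named. Named genes whose 60-week call was lost in the fit of the 10 libraries alone were Hnf4a, Ppara, Mvk, Itih3, Itih4, Sdf2l1, Cnn1, Ciart, Jchain and Sprr1a. In limma voom they were Apcs, Mvk, Dbp, Gzma, Cnn1 and Scara5, and with the range of the animal numbers as a covariate Igfbp1, Per1, Ciart, Plk3 and Jchain. The other reference library for TMM, an alternative chosen after seeing the data, gave 5748 genes in females at 60 weeks, 131 between the sexes, 2733 between 60 and 20 weeks and 0 between 60 and 40 weeks. That library was also the reference with genes of small non-coding RNAs left out and in each fit without 1 of the 10 livers. Of 4098 values of 219 gene results under an alternative, 3935 kept direction and side of the threshold, 139 lost the call, 18 gained it and 6 turned direction. Without control animal 31, 26 oxidative phosphorylation and 15 fatty acid oxidation genes were lower, 5 neutrophil markers were higher, and acute phase genes were 3 higher and 1 lower. No paired analysis was possible because the groups compared share no animal numbers.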
